A study of Rattus norvegicus with 4 samples.

Results

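miR-144 and miR-451 are the microRNAs (miRNAs, short RNAs that guide repression of messenger RNAs) of the erythroid cluster, a locus read as a common transcript. They were taken as the rows rno-miR-144 and rno-miR-451, without an asterisk, in small RNA libraries of rat liver, 2 of the 680 miRNA names listed. Tissue labelled as hepatic fibrosis was compared with tissue labelled as normal liver, with 2 files in each group. The labels give neither strain, age, the way fibrosis was induced, nor whether blood was rinsed from the livers, and do not say whether replicates came from separate animals. The file of fibrosis replicate 2 and that of normal replicate 2 were identical, with 0 of 680 values differing. They were counted once, as the duplicated library, which carries both tissue labels. The data thus comprise 3 distinct libraries, and fibrosis replicate 1 and normal replicate 1 are the only libraries that stand under a label of their own. Of the identical files, the header matches the sample title for fibrosis replicate 2 and not for normal replicate 2. Which tissue the duplicated library came from could not be settled.

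In mouse, the cluster is switched on by the erythroid transcription factor GATA1 as red cell precursors mature, and miR-451 is among the most abundant miRNAs of the mature red cell. miR-451 represses Ywhaz, which encodes a 14-3-3 protein, and so guards mouse red cells against oxidative stress. In human red cells, miR-144 represses NFE2L2, the regulator of antioxidant genes. In mouse and zebrafish, miR-451 is cut from its precursor by the Argonaute protein AGO2 and not by Dicer, and is trimmed to its final length. Because red cells carry these miRNAs, their level in an organ is often read as a sign of the blood it held.

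The sequences are shown because the members differ in seed, hairpin arm and position relative to the loop. RefSeq places both hairpins on the plus strand of chromosome 10 in the rat build GRCr8, miR-144 at chr10:63459397-63459479 and miR-451 at chr10:63459569-63459640, with 89 bases between them. In that annotation they lie between the genes Flot2 and Eral1. The deposited values carry no coordinates, and the submitters' processing notes name another build, rn5. In the following hairpins, written 5′ to 3′, capitals mark the mature miRNA measured here.
Hairpin of miR-144: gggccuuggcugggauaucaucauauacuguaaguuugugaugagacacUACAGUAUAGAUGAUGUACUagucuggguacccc
Hairpin of miR-451: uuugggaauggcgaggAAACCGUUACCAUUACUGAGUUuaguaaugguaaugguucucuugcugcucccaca
Mature miR-144 occupies positions 50 to 69 of its 83-base hairpin, on the 3′ arm. Mature miR-451 occupies positions 17 to 38 of its 72-base hairpin, on the 5′ arm and reaching towards the loop.

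The mature sequences of the 4 rows of the locus follow, with the seed, bases 2 to 8 from the 5′ end, in capitals. RefSeq names its entries by arm, and the starred rows were taken as the arms that the unstarred names do not denote.
miR-451: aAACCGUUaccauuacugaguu
miR-144: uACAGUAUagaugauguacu
miR-144*: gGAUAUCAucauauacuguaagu
miR-451*: aUGGUAAUgguucucuugcugcu
The seeds of miR-451 and miR-144 differ, and none of the 692 other rat mature miRNA names in the RefSeq table shared either over bases 2 to 8. Over bases 2 to 7, miR-144 matched 2 other names, miR-101a and miR-101b, and miR-451 matched 0. These liver-abundant miRNAs are shown for that match.
miR-101a: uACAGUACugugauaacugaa
miR-101b: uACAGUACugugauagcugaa
miR-101b stood at 1141 reads per 1000000 reads (RPM) in fibrosis replicate 1, 1353 RPM in the duplicated library and 1368 RPM in normal replicate 1. Those levels were 1587, 4301 and 691 times the level of miR-144 in the same libraries, so nearly all miRNA with these 6 bases was miR-101 and not miR-144.

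Depth was recovered from the deposited RPM, since all values above 0 in a file were multiples of a single step, the value of 1 read. The libraries had been scaled to between 6357069 and 7070374 reads, of which 50.5% to 52.5% fell on listed miRNAs, and 236 to 250 miRNAs had at least 1 read. The hepatocyte marker miR-122 was the defining signal of each library, at 243915 RPM in fibrosis replicate 1, 247931 RPM in the duplicated library and 263140 RPM in normal replicate 1. Intervals below are 95% exact intervals. They cover counting error alone and not the spread between animals or library preparations. Reads may repeat a molecule, in which case the intervals are too narrow.

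Both members were rare in all 3 libraries, and both were lower in fibrosis replicate 1 and in the duplicated library than in normal replicate 1. miR-451 had 15 reads in fibrosis replicate 1, or 2.16 RPM (1.21 to 3.56, exact Poisson). In the duplicated library it had 11 reads, or 1.73 RPM (0.864 to 3.10), and in normal replicate 1 it had 41 reads, or 5.80 RPM (4.16 to 7.87). The interval of normal replicate 1 lay above the intervals of both other libraries, which overlapped each other. miR-144 had 5 reads in fibrosis replicate 1, or 0.719 RPM (0.234 to 1.68). It had 2 reads in the duplicated library, or 0.315 RPM (0.0381 to 1.14), and 14 reads in normal replicate 1, or 1.98 RPM (1.08 to 3.32). These 3 intervals overlapped, so the order of the libraries is less firm for miR-144 than for miR-451.

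**Figure D1:**
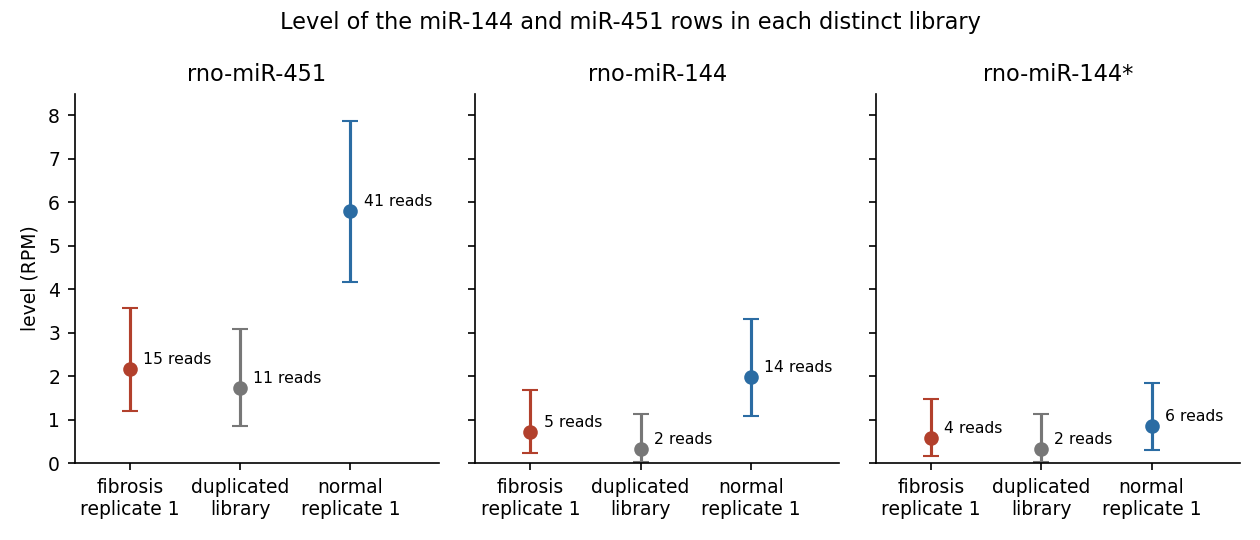
Level in RPM (vertical axis) of miR-451, miR-144 and miR-144* in fibrosis replicate 1, the duplicated library and normal replicate 1. Points are deposited values with their reads, bars 95% exact Poisson intervals for counting error, and normal replicate 1 holds the highest value in each panel, at 5.80 RPM for miR-451.

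The other arms of the hairpins were at or near 0. miR-144*, the 5′ arm of the miR-144 hairpin, had 4 reads in fibrosis replicate 1, 2 in the duplicated library and 6 in normal replicate 1 (0.575, 0.315 and 0.849 RPM). The reads of miR-144 per miR-144* read were 1.25 (0.269 to 6.30), 1.0 (0.0725 to 13.8) and 2.33 (0.842 to 7.41) in these libraries, and all 3 intervals include 1, so no arm could be shown to dominate at this depth. miR-451*, the 3′ arm of the other hairpin, had 0 reads in all 3 libraries. The 95% exact upper limit of a level with 0 reads is 0.531 RPM in fibrosis replicate 1, 0.580 RPM in the duplicated library and 0.522 RPM in normal replicate 1. Taken as 3 reads, the limit is 0.432, 0.472 and 0.424 RPM in these libraries.

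Within the order of all detected miRNAs the members sat in the middle to lower part. miR-451 ranked 121 of 250 in fibrosis replicate 1, 125 of 236 in the duplicated library and 88 of 239 in normal replicate 1. Its neighbours in normal replicate 1, miR-106b, miR-210, miR-222 and miR-34c at 5.66 to 6.08 RPM, had intervals that overlapped its own. miR-144 ranked 150, 171 and 125 in the same libraries. In fibrosis replicate 1 it shared its 5 reads with miR-100, miR-345-5p and miR-674-3p, and in the duplicated library 28 other names, among them miR-144*, also had 2 reads. Neighbours this close could not be ordered at this depth.

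The ratio of the members within a library does not depend on how the library was scaled. There were 3.0 miR-451 reads per miR-144 read in fibrosis replicate 1 (1.04 to 10.6, exact Clopper-Pearson), 5.50 in the duplicated library (1.2 to 51.1) and 2.93 in normal replicate 1 (1.56 to 5.82). miR-451 was thus the more frequently read member in each library, with every interval above 1, and the 3 intervals overlapped. Fibrosis replicate 1 and normal replicate 1, whose miR-451 levels had separate intervals, had nearly the same ratio. The value of the duplicated library rests on 2 miR-144 reads. A read was taken to stand for a mature miRNA, annotated at 22 bases for miR-451 and 20 for miR-144. The lengths of the reads and how they were matched were not given. How well each sequence enters a library was not measured, so the ratio is of reads and not of molecules in tissue. With miR-144* added to miR-144, the ratios were 1.67 (0.683 to 4.32), 2.75 (0.815 to 11.8) and 2.05 (1.17 to 3.69), and the first 2 intervals included 1.

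**Figure D2:**
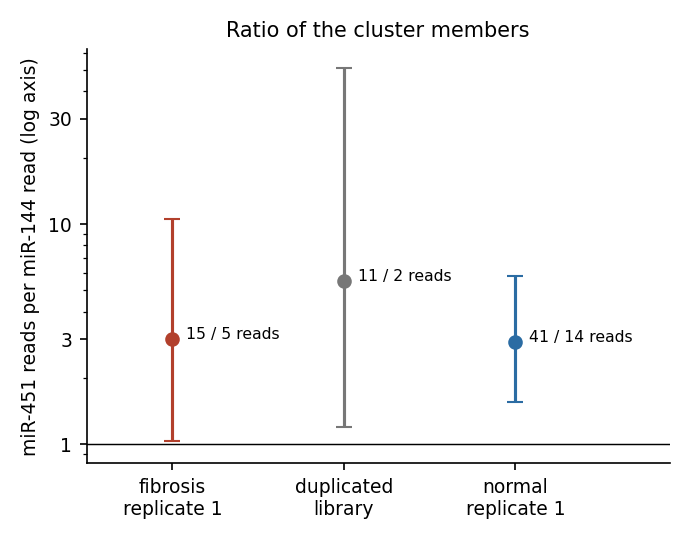
miR-451 reads per miR-144 read (vertical log axis) in fibrosis replicate 1, the duplicated library and normal replicate 1, with the reads of each member. Bars are 95% exact Clopper-Pearson intervals turned into ratios, and the values of 3.0, 5.50 and 2.93 have overlapping intervals above 1, the horizontal line.

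Between fibrosis replicate 1 and normal replicate 1, both members differed by nearly the same factor. The RPM ratio was 0.372 (0.191 to 0.687) for miR-451 and 0.363 (0.102 to 1.07) for miR-144, and only the first interval excludes 1. Summed, the members had 20 reads in fibrosis replicate 1 and 55 in normal replicate 1, a ratio of 0.370 (0.210 to 0.627). Of the 165 miRNAs with at least 10 reads over the 3 libraries, 9 were at least 2-fold lower in fibrosis replicate 1, or 5.45%, and both members were among them. miR-144* was not, at 0.678 (0.141 to 2.86). All 9 had at most 100 reads, a class of 75 miRNAs in which they made up 12.0%, so the background among equally rare miRNAs is higher. An interval wholly below 1, as miR-451 had, was found for 33 of the 165, or 20.0%, and for 4 of the 75 rare miRNAs, or 5.33%. miR-144 stood at rank 2 from the lowest ratio, level with miR-674-3p, and miR-451 at rank 4, and the median ratio of the 165 was 0.910. miR-144 reached the limit of 10 reads only through its 14 in normal replicate 1, with 5 and 2 in the other libraries. That filter favours low ratios to normal replicate 1. The rank of miR-144 and its place among the 9 are thus partly made by the filter. With 1 library on each side the difference has no replicate check and describes these libraries, not the conditions. In bulk tissue, fewer cells of a type and less of the RNA per cell cannot be told apart.

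The duplicated library was also lower than normal replicate 1, with ratios of 0.298 (0.138 to 0.591) for miR-451 and 0.159 (0.0175 to 0.692) for miR-144. This library differed more widely from normal replicate 1, with 25 of the 165 miRNAs, or 15.2%, at least 2-fold lower, and 20 of the 75 rare ones, or 26.7%. Both members had intervals wholly below 1, as did 44 of the 165, or 26.7%, and 8 of the 75, or 10.7%. miR-144 had the lowest ratio of all 165, on 2 reads, and miR-451 stood at rank 7. The rank of miR-144 is partly made by the limit of 10 reads, which it reached only through normal replicate 1. Between fibrosis replicate 1 and the duplicated library, the ratios of 1.25 (0.535 to 3.0) for miR-451 and 2.29 (0.374 to 24.0) for miR-144 had intervals that include 1. Both comparisons share normal replicate 1. A high value there lowers both sets of ratios, so they are not separate support. In both, 5 miRNAs, or 3.03%, were at least 2-fold lower: the members, miR-30b-5p, miR-674-3p and miR-466b-1*. All 5 had 13 to 67 reads over the 3 libraries and thus belong to the 75 rare miRNAs, among which their share is higher. The order with normal replicate 1 highest and the duplicated library lowest, which both members had, was found in 55 of the 165 miRNAs, or 33.3%.

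**Figure D3:**
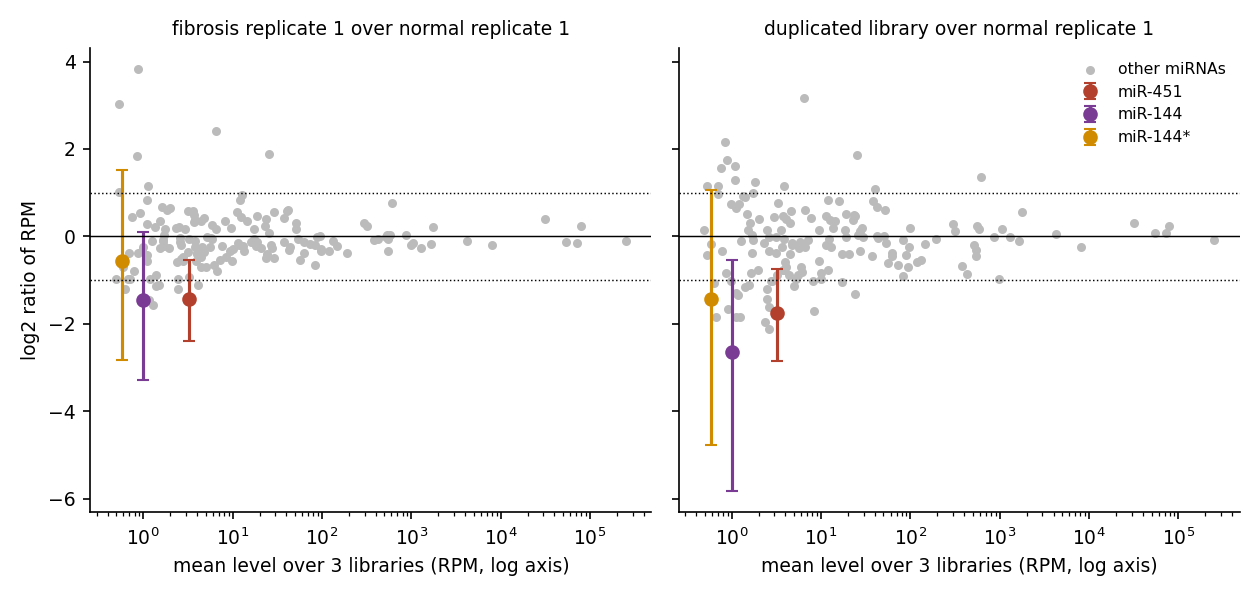
Log2 ratio of RPM (vertical axis) against the mean level over 3 libraries (RPM, log axis) for the 165 miRNAs with at least 10 reads, for fibrosis replicate 1 over normal replicate 1 on the left and the duplicated library over normal replicate 1 on the right. Coloured points with 95% counting intervals are miR-451, miR-144 and miR-144*, and dotted lines mark 2-fold. Both members lie under the lower dotted line in both panels, at log2 ratios of -1.43 and -1.46 on the left, among rare miRNAs whose ratios scatter widely.

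Relative to the hepatocyte miRNA miR-122, the cluster was lower in the same libraries. The summed members made up 11.8 reads per 1000000 miR-122 reads in fibrosis replicate 1, 8.25 in the duplicated library and 29.6 in normal replicate 1. miR-122 itself differed little, with a ratio of 0.927 (0.925 to 0.929) for fibrosis replicate 1 over normal replicate 1. Scaled to miR-122 reads, the ratio of these libraries was 0.402 for miR-451 and 0.392 for miR-144, beside 0.372 and 0.363 in deposited RPM.

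The comparison that the labels imply, with all 4 files in the groups their labels give, called neither member. limma on log2(RPM + 1) gave miR-451 a log2 difference, fibrosis minus normal, of -0.55 (SE 0.43) and an adjusted p of 1. miR-144 had -0.40 (SE 0.33) and an adjusted p of 1 in that limma fit, and the scale of log2(RPM + 1) understates the change of miRNAs this rare. Of 294 miRNAs 0 were called, or 0.0%, and 4 had an unadjusted p under 0.05, while edgeR and DESeq2 on the recovered reads called 0 each, with 1 and 0 unadjusted. The same library stands in both groups here, so each fitted difference averages the difference of the other libraries with 0. Its SE was set by limma's trend across miRNAs and not by the spread of that miRNA. That trend was itself built from the differences between these libraries, so the layout limits what can be called. Counted once and as fibrosis, the duplicated library gave miR-451 a log2 difference of -1.21 (SE 0.24, limma adjusted p = 0.392, unadjusted p = 0.0418) and miR-144 one of -0.99 (SE 0.28, limma adjusted p = 0.455). Counted once and as normal, it gave -0.45 (SE 0.87, limma adjusted p = 0.925) and -0.20 (SE 0.77, limma adjusted p = 0.962). A group with 1 library was here taken to have the spread of the other group. The size of the difference between the tissues thus depends on which label of the duplicated library is taken, and neither choice passed the threshold.

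With 0.5 RPM added to each level, the profiles of the members over the 3 libraries were each other's nearest. Likeness was measured as the distance between log2(RPM + 0.5) profiles, each centred on its own mean, over 164 other miRNAs with at least 10 reads. The distance between miR-144 and miR-451 was 0.237, against a median of 1.11 from miR-144 and 1.08 from miR-451 to the others. The next nearest to miR-144 were miR-92a (0.385), miR-20a (0.398), miR-365 (0.422) and miR-32 (0.438). miR-92a and miR-20a come from the miR-17/92 cluster, and miR-92a stood at 24.2 RPM in fibrosis replicate 1, 13.5 RPM in the duplicated library and 33.9 RPM in normal replicate 1. The next nearest to miR-451 were miR-30b-5p (0.352), miR-674-3p (0.392), miR-365 (0.453) and miR-32 (0.477). The added 0.5 RPM exceeds the 0.315 RPM of miR-144 in the duplicated library and flattens the profiles of rare miRNAs. No other constant was tried, so the order of the nearest may depend on it. With 3 libraries and few reads these distances are descriptions, and miR-32 rests on 4, 2 and 8 reads. miR-144 and miR-32 reached 10 reads only through normal replicate 1, which in part makes their profiles alike.

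Other miRNAs that red cells carry lay on both sides of 1 in fibrosis replicate 1, most of them below it. Of 11 such miRNAs listed, none of them confined to red cells, 10 had a row and 9 had at least 10 reads. In fibrosis replicate 1 over normal replicate 1, 8 were lower and 1 higher, 0 were 2-fold lower, and 2 of the lower, or 2 of 9, had intervals that exclude 1. Over the 165 miRNAs, 64.8% were lower and 20.0% had such an interval, so the share of these intervals on the list is near the background. Their median ratio was 0.776, beside 0.910 over the 165 miRNAs. miR-16, which represses cell cycle genes, stood at 57.3 RPM in fibrosis replicate 1, 54.9 RPM in the duplicated library and 74.8 RPM in normal replicate 1, with a ratio of 0.765 (0.670 to 0.873) for the labelled pair. miR-92a had 0.712 (0.581 to 0.871), while miR-25 (1.01, 0.909 to 1.11), miR-185 (0.991, 0.889 to 1.10), miR-106b (0.970, 0.617 to 1.52) and miR-15b (0.851, 0.548 to 1.32) had intervals that include 1. The lowest ratios of the list were those of miR-20a (0.665, 0.339 to 1.27) and miR-17-5p (0.678, 0.352 to 1.28). The interval of miR-451, 0.191 to 0.687, lies wholly below those of miR-25 and miR-185 and overlaps those of miR-16, miR-92a, miR-106b, miR-15b, miR-93, miR-20a and miR-17-5p. In the duplicated library all 9 were lower than in normal replicate 1, as were 58.8% of the 165. Their median ratio there was 0.611, beside 0.933. At least 2-fold lower were 3 of the 9, beside 15.2% of the 165. Intervals wholly below 1 were found for 6 of the 9, beside 26.7% of the 165. miR-20a, at 0.257 (0.0864 to 0.638), was there as low as miR-451. miR-486, another abundant red cell miRNA, was not analysed here.

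miRNAs known to decline as red cells mature lay on both sides of 1. This list had 5 miRNAs with a row, 4 of them higher in fibrosis replicate 1 than in normal replicate 1 and 1 lower. The median ratio was 1.33, and 1 interval, that of miR-24, excludes 1. Over the 165 miRNAs, 64.8% were lower and the median ratio was 0.910. The share of the 165 with an interval wholly above 1 was not counted. miR-24, which represses an activin receptor in human erythroid cells, stood at 37.3 RPM in fibrosis replicate 1, 48.8 RPM in the duplicated library and 28.0 RPM in normal replicate 1, and its ratio was 1.33 (1.10 to 1.61) for the labelled pair. miR-221 and miR-222, which repress the receptor KIT in human erythroid precursors, had ratios of 0.916 (0.774 to 1.08) and 1.2 (0.767 to 1.87). In the duplicated library 3 of the 5 were higher than in normal replicate 1 and 2 lower, with a median ratio of 1.74. Over the 165 miRNAs, 58.8% were lower in that library and the median ratio was 0.933. miR-24 had 1.74 (1.45 to 2.09) there and miR-221 had 0.732 (0.608 to 0.878), on the side of the cluster. miR-223 and miR-150 are also leukocyte miRNAs and are given with those.

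Leukocyte and platelet miRNAs lay on both sides of 1. Of 6 with a row, 3 were higher and 3 lower in fibrosis replicate 1 than in normal replicate 1. The median ratio was 1.14, and 1 interval on each side excludes 1. Over the 165 miRNAs, 64.8% were lower, 20.0% had an interval wholly below 1 and the median ratio was 0.910. The share wholly above 1 was not counted, so the 1 such interval on this list, that of miR-142-5p, has no background beside it. miR-142-5p, made by blood cells of all lineages, stood at 39.4 RPM in fibrosis replicate 1, 56.0 RPM in the duplicated library and 26.4 RPM in normal replicate 1, and its ratio was 1.49 (1.23 to 1.80) for the labelled pair. Its interval lies wholly above that of miR-451. The myeloid miRNA miR-223 had 7, 8 and 2 reads and the lymphocyte miRNA miR-150 had 7, 11 and 4 reads in those libraries. Their ratios of 3.56 (0.678 to 35.1) and 1.78 (0.453 to 8.29) had intervals that include 1. miR-342-3p, at 0.638 (0.411 to 0.978), was lower, and miR-146a (0.796, 0.547 to 1.15) and miR-142-3p (0.610, 0.0948 to 3.14) had intervals that include 1. In the duplicated library, 4 of the 6 were higher than in normal replicate 1 and 2 lower, where 58.8% of the 165 were lower. miR-142-5p had a ratio of 2.12 (1.77 to 2.54) there.

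The summed level of the leukocyte and platelet list was 55.0 RPM in fibrosis replicate 1, 75.2 RPM in the duplicated library and 46.1 RPM in normal replicate 1. Most of that sum is miR-142-5p, and the 5 other miRNAs summed to 15.5 RPM, 19.2 RPM and 19.7 RPM, with normal replicate 1 highest. The cluster summed to 2.88 RPM (1.76 to 4.44), 2.05 RPM (1.09 to 3.50) and 7.78 RPM (5.86 to 10.1). The summed red cell list stood at 308 RPM, 224 RPM and 341 RPM, with normal replicate 1 highest and the duplicated library lowest. The cluster had that order too, as did 33.3% of the 165 miRNAs. Most of the red cell sum is miR-25 and miR-185. Their ratios for fibrosis replicate 1 over normal replicate 1 were 1.01 and 0.991, beside 0.370 for the summed cluster. Of the endothelial arms, miR-126 had a ratio of 1.53 (0.573 to 4.30) and miR-126* of 1.12 (0.707 to 1.79) for fibrosis replicate 1 over normal replicate 1. The hepatocyte miRNAs miR-192 and miR-194 had ratios of 0.876 (0.866 to 0.886) and 0.692 (0.602 to 0.795). The part of any of these cell types in the level of miR-144 and miR-451 was not tested.

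**Figure D4:**
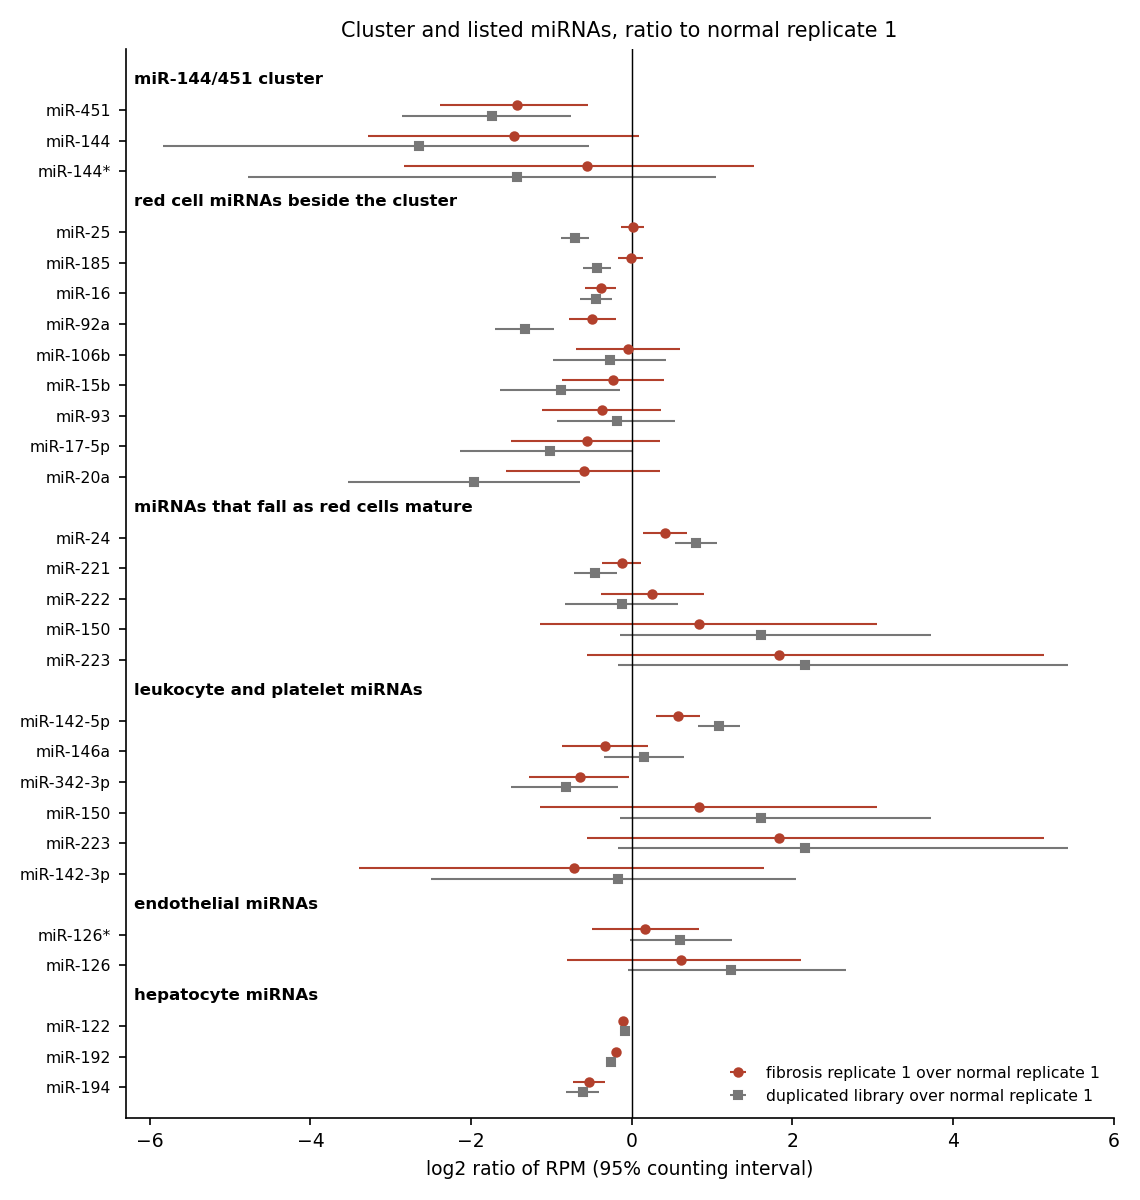
Log2 ratio of RPM to normal replicate 1 (horizontal axis) for the cluster and for the listed miRNAs with at least 10 reads, as circles for fibrosis replicate 1 and squares for the duplicated library, with 95% counting intervals. miR-451 and miR-144 lie left of 0 in both libraries, while miR-142-5p and miR-24 lie right of 0 in both. miR-150 and miR-223 stand on 2 lists.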

How the data were processed

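Per the labels' protocols, liver RNA was extracted with TRIZOL and sequenced from Illumina small RNA libraries. CASAVA 1.4 and the rat build rn5 stand in the submitters' processing notes. The aligner, the miRNA annotation and how reads matching several miRNAs were counted were not given in the sources used here. The authors deposited RPM per miRNA name. Dividing each file by its value of 1 read (0.1414 to 0.1573 RPM) gave whole reads for 100% of values above 0, within 0.01 reads. A header differs from its sample title in 1 file, that of normal replicate 2.

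Groups came from the tissue label. Ratios between libraries carry exact binomial counting intervals and no p. The labelled comparison was fitted with limma 3.58.1 in R 4.3.3, on log2(RPM + 1), with a trended prior and p-values adjusted by Benjamini-Hochberg over the 294 miRNAs above 0. The recovered reads were also tested with edgeR 4.0.16 (quasi-likelihood test) and DESeq2 1.42.0. Intervals used scipy 1.17.1, and sequences came from RefSeq tables of build GRCr8, which held all 4 mature names of the locus. The members and lists were chosen with earlier results of these data known, and so was the 2-fold limit. Named miRNAs were the members, the arms of their hairpins, at most 6 of each list by mean RPM, the 5 nearest profiles and the neighbours by rank; the miRNAs 2-fold lower in both libraries, miR-101, miR-17-5p, miR-93 and the sum without miR-142-5p, were added after values were seen. miR-155 and miR-486 were not analysed here.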

Additional observations from a re-analysis of the deposited data

How the results depend on the processing

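Of the recomputed values, 63 kept their direction and call or stayed within their counting interval, 13 moved and 2 turned direction. Levels in other units were held against the interval in RPM, and the leukocyte and platelet sums were counted as moved without an interval. This tally is thus a description and not a measure of robustness. Under 6 other scalings the ratio for fibrosis replicate 1 over normal replicate 1 ran from 0.354 to 0.402 for miR-451 and from 0.346 to 0.392 for miR-144. With the duplicated library averaged in, the ratios were 0.335 and 0.261 if it was counted as fibrosis, and 0.573 and 0.627 if as normal. Without miR-142-5p, chosen after seeing the data, the leukocyte and platelet list summed to 15.5 RPM in fibrosis replicate 1, 19.2 RPM in the duplicated library and 19.7 RPM in normal replicate 1. Levels change with the unit by construction. Per 1000000 reads on listed miRNAs, miR-451 stood at 4.28 in fibrosis replicate 1, 3.29 in the duplicated library and 11.2 in normal replicate 1, and miR-144 at 3.83 in normal replicate 1. Per 1000000 miR-122 reads, miR-451 stood at 8.85, 6.98 and 22.0 and miR-144 at 2.95, 1.27 and 7.52 in these libraries.

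In the labelled comparison all fits that kept the 4 files called 0 miRNAs. The same library stands in both groups, so the differences between libraries also set the spread they were tested against. The 0 calls were thus largely set by the layout and do not show that the tissues are alike. Leaving out 1 file at a time, limma gave log2 differences from -1.21 to 0.10 for miR-451 and from -0.99 to 0.19 for miR-144. The positive values, 0.10 and 0.19, came without normal replicate 1, where the duplicated library is the only normal file. In the other fits, which kept all 4 files, the adjusted p ran from 0.602 to 1 for each member. miR-144 fell under a minimum mean of 1 RPM and has no value there. Replicate numbers are names only. With the replicate number as a block, limma gave -0.55 for miR-451 and -0.40 for miR-144 (adjusted p = 0.602 each) and 0 calls. The replicate 2 files differ by 0 there, so the spread of each miRNA is fixed by its own difference. That fit could therefore not test the members. The same-numbered first files deviated together (r = 0.683 over 294 miRNAs), but both deviations are taken against the same duplicated library. At 2 to 41 reads, counting error limits each statement on these miRNAs.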
